A study of Mus musculus with 11 samples.

Results

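The genes described here act when a dividing cortical progenitor commits to making neurons, together with genes that mark the intermediate progenitors formed on the way. They were chosen by symbol, as Neurog1, Neurog2, Neurod1, Neurod4, Eomes, Insm1, Btg2, Tis21, Gadd45g and Hes6. Of these 10 symbols, 9 were rows in each of the 2 expression tables, and Tis21 is another name of Btg2, so the set holds 9 of the 20475 genes listed. All 9 reached the mean of 10 normalized counts required for testing in both tables, which 13938 genes reached in the germline table and 14081 in the inducible one.

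Poly(A) RNA from cortical cells of mouse embryos at E12.5 was sequenced after loss of Kif20a, a mitotic kinesin. The germline comparison held 3 wild-type and 3 homozygous knockout-first libraries, in which a cassette with LacZ and neomycin resistance interrupts Kif20a in every cell. The inducible comparison held 2 libraries labelled wild type and 3 from Nestin-CreERT2; Kif20a fl/fl embryos, with tamoxifen injected into the mothers on E9.5 and E10.5. Nestin drives this Cre in neural progenitors, so cells outside that lineage keep Kif20a. The study also reports sizeable Kif20a signal left in these knockouts, and proposes varied Cre levels among cortical cells as a possible reason. Whether the wild-type controls carried floxed alleles is not stated for the RNA samples. The mice came from 1 embryonic stem cell clone. The study names the tissue cortex and the labels name it forebrain. The cortical identity genes Emx1, Emx2, Lhx2 and Pax6 were present in all 11 libraries. So were the 10 listed genes of the ventral telencephalon, with Dlx1 at 955 normalized counts or more, so presence alone does not separate the 2 names. How many embryos made up a library is not stated, so p-values measure the spread between these libraries.

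In the developing cortex, radial glia divide at the ventricle. A daughter that leaves this state can pass through an intermediate progenitor, which divides again away from the ventricle to make neurons. Neurogenin proteins start this step as basic helix-loop-helix activators that pair with E proteins, bind the E-box CANNTG and switch on the Notch ligand Delta, the NeuroD genes and Eomes. Notch signaling and its Hes repressors hold neighboring cells back from the same step.

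None of the 9 genes passed both thresholds used by the study (1.5-fold or more, and an unadjusted P of at most 0.05) in either comparison. In the germline knockouts Insm1 and Hes6 were lower in each of the 3 knockout libraries than in any wild-type library, Insm1 at 67.2% and Hes6 at 80.1% of the wild-type mean. Eomes and Neurod1 were low in knockout replicates 1 and 3 and high in knockout replicate 2. In the inducible knockouts the 9 log2 fold changes lay between −0.12 and 0.12.

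Kif20a was measured first as a check of the labels. In the germline table it measured 2456, 2295 and 2680 normalized counts in wild-type and 409, 374 and 503 in knockout libraries, or 17.3% of the wild-type mean (limma, log2 fold change −2.54, adjusted p = 0.00845). In the inducible table it measured 4760 and 4844 in wild-type and 3125, 2915 and 2853 in knockout libraries, or 61.7% (limma, log2 fold change −0.70, adjusted p = 0.0107). In neither table did the groups overlap, and the exact permutation p of each was 0.1, the smallest these group sizes allow. The study reports that the Kif20a signal left in the germline knockouts lay in the first exons. It relates this to the cassette, which disrupts the full-length transcript, so 17.3% is not a level of intact Kif20a RNA.

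Germline knockout replicate 2 stood apart from the other 5 germline libraries. On the first principal component of all tested genes, which held 58% of the variance, it scored 91.2 and the others −38.4 to 3.84. Its 7 cranial mesenchyme genes summed to 82.3 normalized counts, against 4029 to 7580 in the wild-type libraries, and its 5 microglia genes to 15.1, against 306 to 449. Its 4 cortical identity genes, Emx1, Emx2, Lhx2 and Pax6, summed to 13646, against 8937 to 9897 in the wild-type libraries. Germline knockout replicate 1 differed the other way. Its mesenchyme genes summed to 18213, and the diencephalic genes Gbx2, Olig3 and Tcf7l2 measured 208, 451 and 3212, with wild-type maxima of 11.3, 32.4 and 594. Irx1 and Irx3 of the same list were high too, at 42.0 and 237 against wild-type maxima of 2.36 and 19.4. Lhx9, the remaining gene and the most abundant of the list in wild-type libraries, was not. It measured 748, within the wild-type range of 718 to 1282. The part of these differences in the values below was not tested. In bulk RNA, fewer cells of a type and less RNA per cell cannot be told apart.

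Neurog2 and Neurog1 are the proneural activators that commit dorsal progenitors. Neurog2 (chr3:127336054-127338549, plus strand, 2 exons in mm9) measured 2101, 1927 and 1209 normalized counts in germline wild-type libraries and 1538, 5045 and 1191 in knockout libraries. Knockout replicate 2 was 2.89 times the wild-type mean while knockout replicates 1 and 3 lay below that mean, so the groups overlapped (log2 fold change 0.31 ± 0.53 SE, limma, adjusted p = 0.889). Without that library the log2 fold change was −0.33 ± 0.24. Neurog1 (chr13:56351866-56353524, minus strand, 1 exon) was much less abundant, at 121, 134 and 204 in wild-type and 193, 146 and 153 in knockout libraries. Its knockout values lay inside the wild-type range (log2 fold change 0.13 ± 0.26 SE, adjusted p = 0.906 by limma), and knockout replicate 2 did not stand out.

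Neurod1 and Neurod4 are helix-loop-helix factors that follow the neurogenins in newly forming neurons. Neurod1 (chr2:79292678-79296908, minus strand) measured 784, 582 and 681 in germline wild-type libraries and 415, 1148 and 443 in knockout libraries. Both directions were thus mixed, with knockout replicates 1 and 3 below each wild-type library and replicate 2 above each. Over all 6 libraries the log2 fold change was −0.19 ± 0.39 SE (limma, adjusted p = 0.908). Of the Neurod1 exon bases, 355 also lie in annotated exons of Cerkl on the same strand or Gm17325 on the other, and the sources used here do not say whether counting used strand. Neurod4 (chr10:129705209-129717296, minus strand), the least abundant gene of the set, measured 131, 73.8 and 139 in wild-type and 98.1, 26.0 and 100 in knockout libraries. Here knockout replicate 2 was the low library, at 22.7% of the wild-type mean, and the groups overlapped (log2 fold change −0.78 ± 0.56 SE, adjusted p = 0.794 by limma).

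Eomes, also called Tbr2, is the T-box factor that marks intermediate progenitors, and Insm1 is a zinc-finger repressor that promotes their formation. Eomes (chr9:118387330-118395250, plus strand, 6 exon blocks) measured 2016, 1808 and 1713 in germline wild-type libraries, a narrow range, and 689, 3024 and 1223 in knockout libraries. The knockout libraries spanned 4.39-fold and lay on both sides of the wild-type range (log2 fold change −0.43 ± 0.48 SE, limma, adjusted p = 0.847). Insm1 (chr2:146047657-146050752, plus strand, 1 exon) measured 770, 978 and 770 in wild-type and 569, 556 and 567 in knockout libraries. The 3 knockout libraries agreed within 1.02-fold and all lay below the lowest wild-type library. Its mean went from 839 ± 120 (SD, n = 3) to 564 ± 6.94 (SD, n = 3). The log2 fold change was −0.56 ± 0.14 SE (95% interval −0.90 to −0.23, limma, adjusted p = 0.779), past the P threshold and just short of the 0.585 that a 1.5-fold change makes on this scale.

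**Figure D1:**
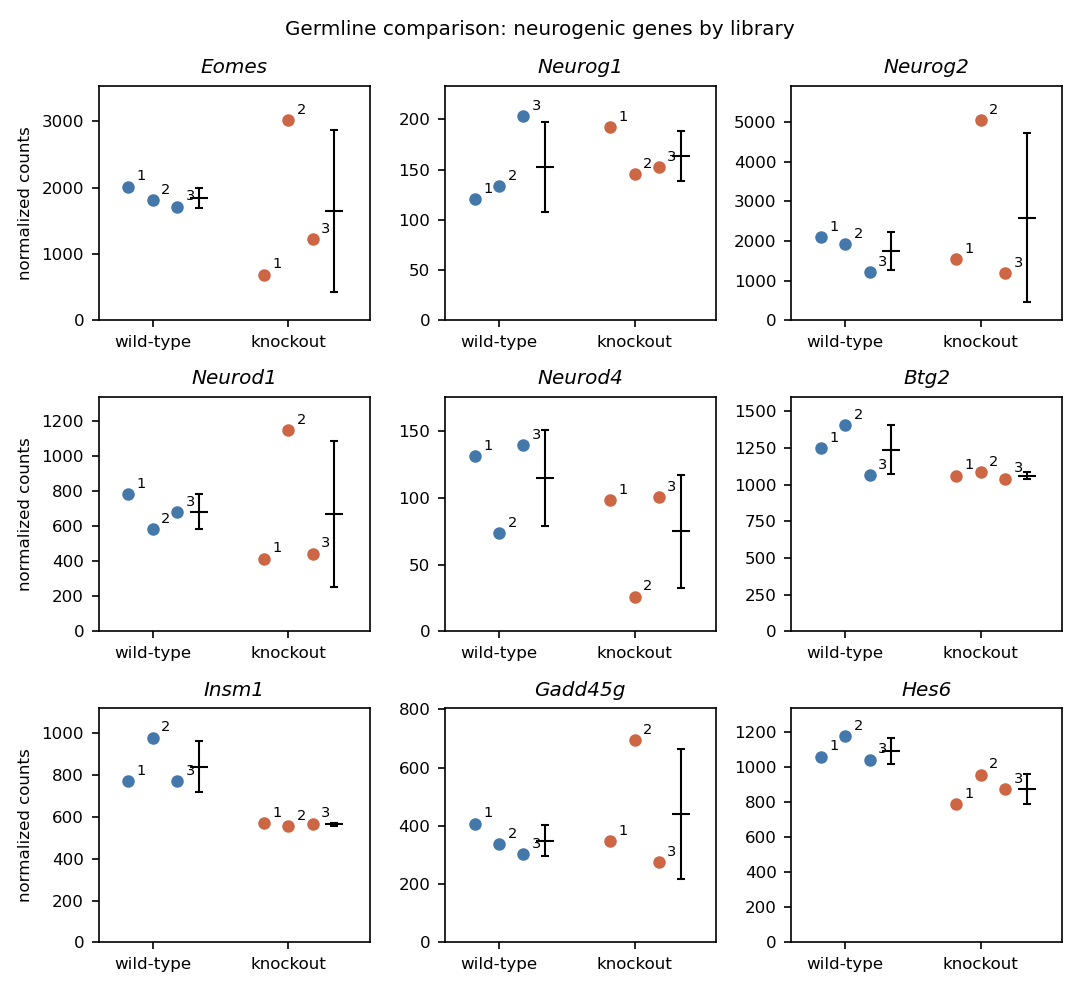
Normalized counts (linear axis from 0) of the 9 genes in the germline comparison. Points are libraries, numbered by replicate, and black marks are the mean ± SD of each group (n = 3 and 3). Insm1 and Hes6 separate the groups, whereas Eomes, Neurog2, Neurod1 and Gadd45g spread widely among knockout libraries. Knockout replicate 2 is high for each of these, and for Eomes and Neurod1 the other knockout libraries also lie below every wild-type library.

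Btg2 and Gadd45g restrain division, and Hes6 counters the repression exerted by Hes1. Btg2 (chr1:135971747-135975697, minus strand), whose expression marks progenitors in a neuron-producing division, measured 1248, 1404 and 1066 in germline wild-type libraries and 1062, 1085 and 1042 in knockout libraries. The knockout libraries lay close together at the lower edge of the wild-type range, and 1 of them overlapped it (log2 fold change −0.21 ± 0.14 SE, adjusted p = 0.78 by limma). Hes6 (chr1:93308060-93310615, minus strand) measured 1060, 1175 and 1043 in wild-type and 790, 958 and 876 in knockout libraries. The groups did not overlap, with a log2 fold change of −0.32 ± 0.13 SE (95% interval −0.63 to −0.02, limma, adjusted p = 0.779). Gadd45g (chr13:51942047-51943837, plus strand, 3 exons), a stress- and cell-cycle-linked gene induced by neurogenins, measured 408, 338 and 303 in wild-type and 348, 695 and 276 in knockout libraries. Only knockout replicate 2 exceeded the wild-type range, at 1.99 times the wild-type mean (log2 fold change 0.23 ± 0.34 SE, adjusted p = 0.876 by limma).

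Counted over the set, 0 of 9 genes were past both germline thresholds, where 0.667% of all tested genes were lower and 2.07% higher in knockout. At an unadjusted limma P of at most 0.05, 2 of 9 genes, Insm1 and Hes6, were lower and 0 were higher, against 2.45% and 2.93% of all genes. No gene of the set had an adjusted p under 0.05, as was true of all but 0.00717% of genes. Groups did not overlap for 2 of 9 genes, both lower in knockout, beside 7.55% of all genes lower and 5.9% higher. The median log2 fold change of the 9 genes was −0.21, with 6 below 0. That of all 13938 tested genes was −0.04, with 7810 below 0.

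The 9 genes fell into different patterns across the germline knockout libraries. Insm1 was at 67.8%, 66.2% and 67.5% of the wild-type mean in knockout replicates 1, 2 and 3, and Btg2 at 85.7%, 87.5% and 84.1%. Their coefficients of variation among knockout libraries were 1.23% and 2.01%. Eomes was at 37.3%, 164% and 66.2%, and Neurog2 at 88.1%, 289% and 68.2%, with coefficients of variation of 74.4% and 82.3%. Thus Insm1 and Btg2 hardly varied between knockout libraries in which Eomes and Neurog2 differed several-fold. Across the 6 libraries, which share their normalization and in which replicate 2 carries much of the spread, Pearson's r of log2 values was 0.98 for Neurog2 with Gadd45g, 0.92 for Eomes with Neurod1, 0.89 for Insm1 with Hes6 and 0.85 for Insm1 with Btg2. It was −0.88 for Neurog2 with Neurod4 and −0.18 for Neurog2 with Insm1. Across the inducible libraries the same pairs, in that order, gave −0.70, −0.06, 0.12, −0.93, 0.81 and −0.78.

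**Figure D2:**
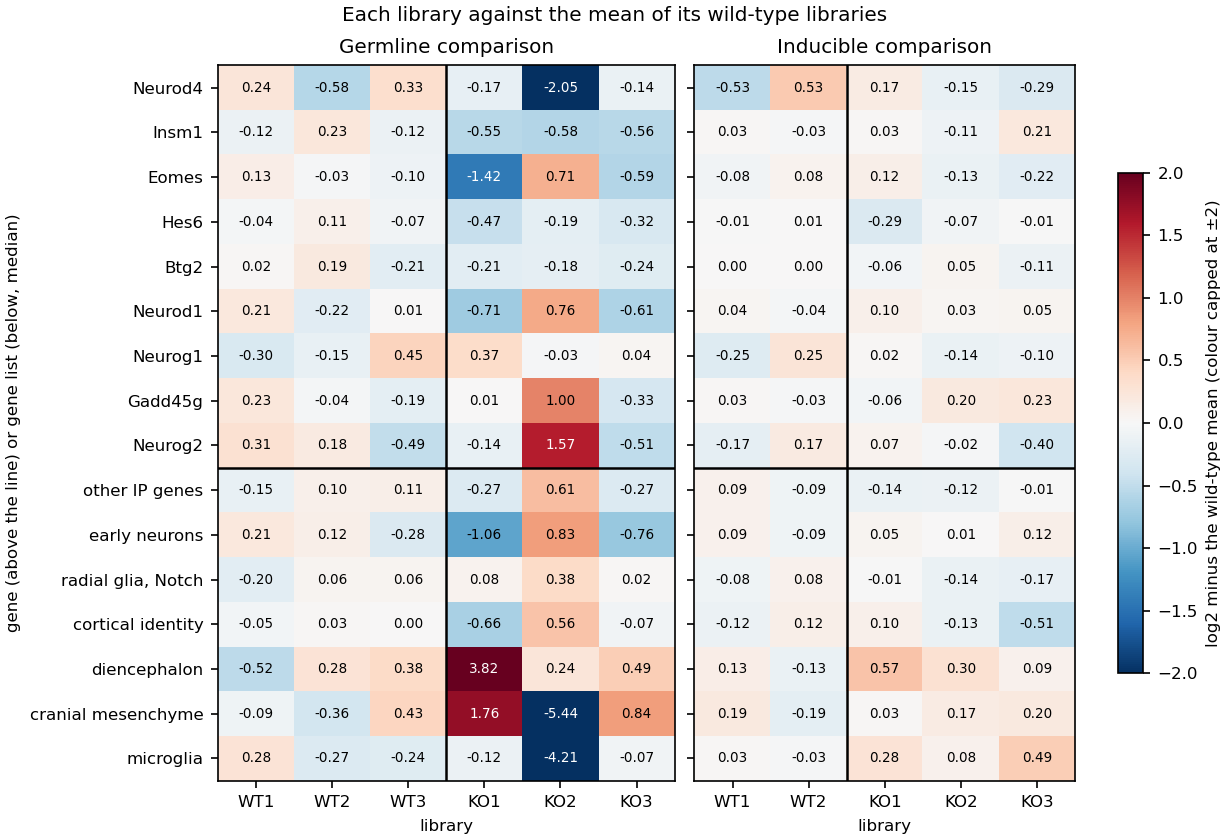
Log2 normalized count of each gene (above the line) or median over a gene list (below) in each library, minus the mean of the wild-type libraries of the same comparison. IP, intermediate progenitor. Colors stop at ±2 and the printed values do not. In germline knockout replicate 2, Neurog2 (1.57), Gadd45g (1.00), Neurod1 (0.76) and Eomes (0.71) are high together with cortical identity (0.56) and early neuron genes (0.83), while Insm1 (−0.58) is as low as in the other knockout libraries. The inducible panel is pale for the rows shown, which leave out the ventral telencephalon and cortical hem lists.

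Leaving out knockout replicate 2 changed which genes passed. Eomes then differed by a log2 fold change of −1.004 ± 0.22 SE (limma, adjusted p = 0.142) and Neurod1 by −0.66 ± 0.16 SE (limma, adjusted p = 0.162), so that 2 of 9 genes were past both thresholds and lower. In that fit of 5 libraries 4.58% of all genes were lower and 4.19% higher at the same thresholds. Insm1 (−0.55 ± 0.15 SE) and Hes6 (−0.39 ± 0.13 SE) kept their direction, whereas Neurog2 (−0.33) and Gadd45g (−0.16) changed sign. Without wild-type replicate 1, or without wild-type replicate 3, Insm1 itself was past both thresholds, with a log2 fold change of −0.62 each time. Insm1 was past the P threshold whichever of the 6 libraries was left out, whereas Hes6 was past it only when the library left out was knockout replicate 2. With all 6 libraries Hes6 also missed it under median-of-ratios scaling, without a trend in eBayes, with a replicate block and with the Y-linked covariate (log2 fold change −0.365 to −0.29), so that Insm1 alone of the 9 was then past it. The 2 knockout libraries left without replicate 2 had early neuron medians of −1.06 and −0.76 and cortical identity medians of −0.66 and −0.07 on the same log2 scale, and whether these account for the lower Eomes and Neurod1 was not tested.

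Set against the 4 cortical identity genes of its own library, an alternative chosen after the data were seen, the mean differences stayed and the spread between libraries changed. On this relative log2 scale Eomes was −0.82, 0.015 and −0.50 in knockout replicates 1, 2 and 3, and its wild-type libraries lay between −0.12 and 0.175, so that knockout replicate 2 no longer stood above them. Insm1 was 0.05, −1.28 and −0.46, and Hes6 0.14, −0.89 and −0.22, so that knockout replicate 1 lay within the wild-type range of Insm1 and above that of Hes6, and neither gene kept its groups apart. The log2 fold changes were −0.43 for Eomes, −0.565 for Insm1 and −0.325 for Hes6, against −0.43, −0.56 and −0.32 without this scaling. The SE rose from 0.14 to 0.40 for Insm1 and from 0.13 to 0.375 for Hes6, and it fell from 0.48 to 0.36 for Eomes. By limma on this scale the adjusted p of all 3 genes was 1, and 0 of 9 genes had an unadjusted P of at most 0.05.

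**Figure D3:**
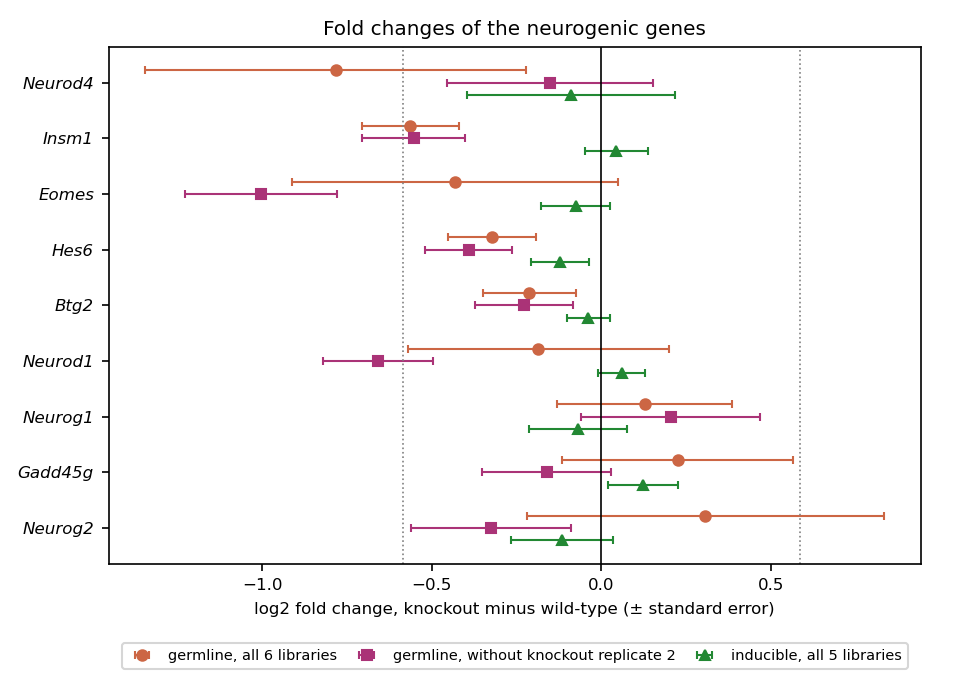
Log2 fold change, knockout minus wild-type, of each gene (points) with its standard error (bars) from limma, in the germline comparison with all 6 libraries, in the germline comparison without knockout replicate 2, and in the inducible comparison. Dotted lines mark a 1.5-fold change. Eomes and Neurod1 lie past the lower line without replicate 2, and every inducible value lies close to 0.

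The inducible comparison was much tighter. Eomes measured 3422 and 3811 normalized counts in wild-type and 3924, 3305 and 3103 in knockout libraries. The ranges overlapped, with a log2 fold change of −0.08 ± 0.10 SE (95% interval −0.32 to 0.16, adjusted p = 0.929 by limma). Insm1 measured 1662 and 1592 in wild-type and 1657, 1512 and 1884 in knockout libraries, with no sign of the germline separation. Its log2 fold change was 0.04 ± 0.09 SE (95% interval −0.17 to 0.26, adjusted p = 0.96). The interval of the inducible Insm1 difference thus ended above the germline estimate of −0.56, but the tables were normalized apart and the difference between comparisons was not tested.

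Hes6 measured 2026 and 2045 in inducible wild-type and 1664, 1941 and 2023 in knockout libraries. It was the single gene of the set whose groups did not overlap, by a margin of a few counts in knockout replicate 3, with a log2 fold change of −0.12 ± 0.09 SE (limma, adjusted p = 0.884). Without knockout replicate 1 the log2 fold change of Hes6 was −0.04. Btg2 measured 2407 in each wild-type library and 2312, 2499 and 2228 in knockout libraries, which lay on both sides.

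Neurog2 measured 2665 and 3391 in inducible wild-type and 3148, 2964 and 2283 in knockout libraries, and Neurog1 488 and 691 against 590, 527 and 543. The knockout values lay between the wild-type libraries, except that Neurog2 in knockout replicate 3 lay below both. Neurod1 varied least among knockout libraries (coefficient of variation 2.29%), at 715 and 676 in wild-type and 744, 712 and 720 in knockout libraries. Neurod4, again the least abundant, measured 77.7 and 162 against 127, 101 and 91.5. Without wild-type replicate 1 its log2 fold change went from −0.09 to −0.62 (limma, adjusted p = 0.776), past both thresholds, and without wild-type replicate 2 to 0.44, so the call rests on single wild-type libraries. Gadd45g measured 579 and 555 against 543, 653 and 665, with 2 knockout libraries above both wild-type ones and 1 below (log2 fold change 0.12 ± 0.10 SE).

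**Figure D4:**
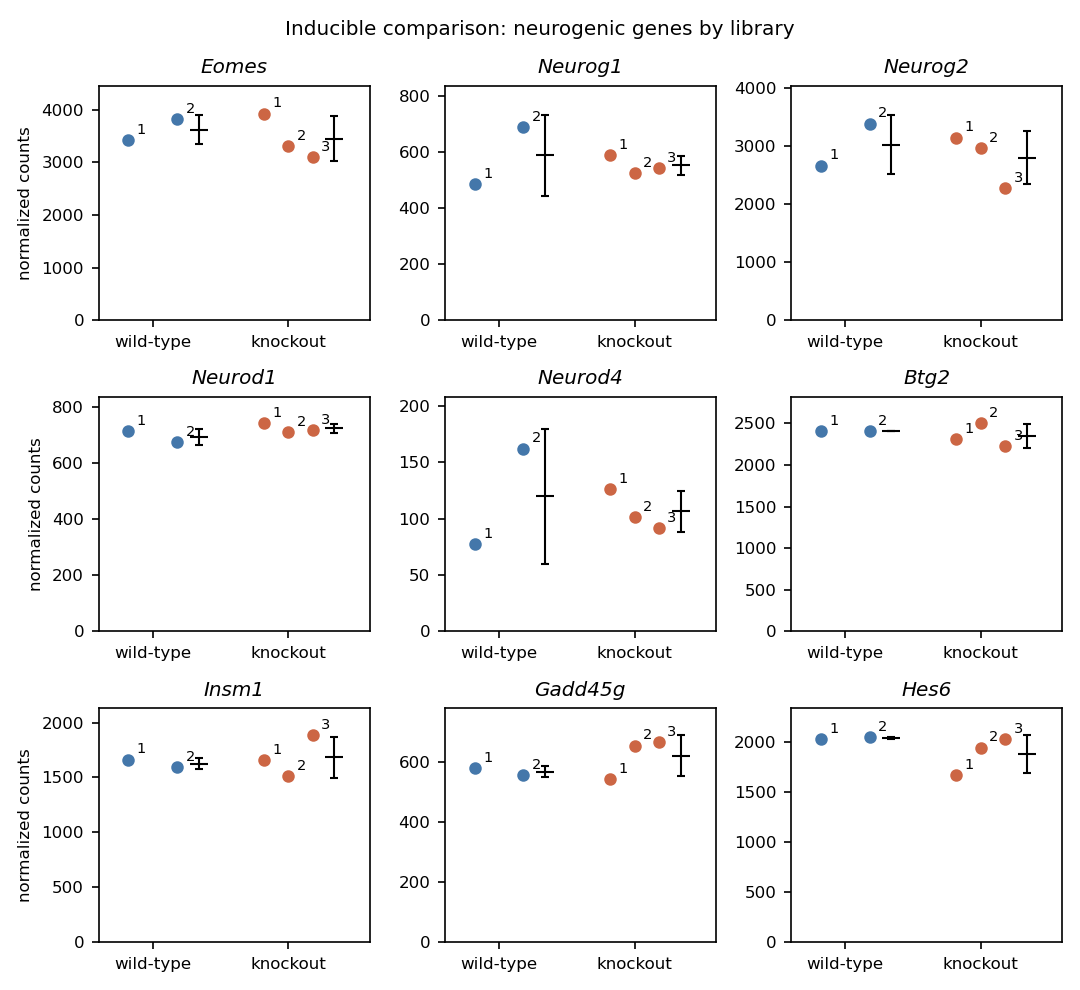
Normalized counts (linear axis from 0) of the 9 genes in the inducible comparison. Points are libraries, numbered by replicate, and black marks are the mean ± SD of each group (n = 2 and 3). Knockout points lie among or near the wild-type points in each panel, and Neurod4, Neurog1 and Neurog2 have the widest wild-type pairs for their level.

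In the inducible comparison 0 of 9 genes were past both thresholds, where 0.49% of all tested genes were lower and 0.802% higher. By limma 0 of 9 had an unadjusted P of at most 0.05, against 3.03% of all genes lower and 2.98% higher, and 0 had an adjusted p under 0.05, against 0.0355%. Groups did not overlap for 1 of 9 genes, lower in knockout, where 12.2% of all genes were lower and 10.4% higher. The median log2 fold change of the 9 genes was −0.07 and that of all genes −0.002. Both inducible wild-type libraries had almost no RNA of 4 Y-linked genes (sums of 1.96 and 4.24 normalized counts), while the 3 knockout libraries had 2389 to 3209. Sex and genotype therefore cannot be told apart here. In the germline table both groups held libraries with and without Y-linked RNA, and with that level as a covariate Insm1 had a log2 fold change of −0.64 ± 0.16 SE, past both thresholds (limma, adjusted p = 0.998).

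Per kilobase of exon, the same 4 genes led in both sets of wild-type libraries. Neurog2 came first with a mean of 784 normalized counts per kilobase in germline wild-type and 1360 in inducible wild-type libraries, followed by Hes6 (604 and 1126), Btg2 (452 and 878) and Eomes (444 and 870). Gadd45g (298 and 484), Insm1 (271 and 526) and Neurod1 (250 and 255) were lower, and Neurod4 (34.3 and 35.9) was last in both. Neurog1 (92.0 and 355) came below Neurod1 in germline and above it in inducible wild-type libraries. Neighbors often overlapped, as did Neurog2 (543 to 944) with Hes6 (577 to 650), Btg2 (389 to 512) with Eomes (412 to 485), and Gadd45g, Insm1 and Neurod1 with each other in the germline wild-type libraries. Levels of the 2 tables were normalized apart and are set side by side without a test.

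Promoter windows of 8 of the 9 genes, all but Insm1, were taken from RefSeq (GRCm38.p6) as the 250 bases before 10 start sites, and each matched mm9 exactly once. The E-box CANNTG, a pattern that reads the same on both strands, occurred in 4 of the 10 windows, beside 66.2% of 32851 mouse windows of the same length. CAGATG or its reverse complement occurred in 0 of the 10 (14.4% of all windows), and CAGCTG, which is also an instance of CANNTG, in 3 (13% of all). The windows of Neurog2 and Gadd45g are shown because these genes varied together across the germline libraries, that of Hes6 because its knockout libraries separated from wild-type, and that of Eomes because its knockout libraries scattered. Letters run 5′ to 3′ along the gene's strand, and capitals mark each CANNTG.
Neurog2, chr3:127335804-127336053 (mm9, plus strand): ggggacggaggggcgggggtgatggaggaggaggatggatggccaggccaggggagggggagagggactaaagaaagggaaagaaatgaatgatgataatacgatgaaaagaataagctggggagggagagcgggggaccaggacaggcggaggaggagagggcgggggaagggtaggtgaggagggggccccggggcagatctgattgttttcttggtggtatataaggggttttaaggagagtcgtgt
Gadd45g, chr13:51941794-51942043 (mm9, plus strand): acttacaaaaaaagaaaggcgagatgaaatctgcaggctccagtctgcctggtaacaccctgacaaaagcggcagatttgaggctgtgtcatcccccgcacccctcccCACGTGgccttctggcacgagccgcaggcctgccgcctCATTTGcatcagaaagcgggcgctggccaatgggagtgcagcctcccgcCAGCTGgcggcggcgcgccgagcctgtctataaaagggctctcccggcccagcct
Eomes, chr9:118387057-118387306 (mm9, plus strand): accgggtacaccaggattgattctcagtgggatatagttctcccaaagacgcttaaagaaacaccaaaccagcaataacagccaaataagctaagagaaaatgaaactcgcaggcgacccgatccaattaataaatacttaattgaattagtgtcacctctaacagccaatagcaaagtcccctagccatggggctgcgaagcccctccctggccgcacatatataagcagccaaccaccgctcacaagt
Hes6, chr1:93310616-93310865 (mm9, minus strand): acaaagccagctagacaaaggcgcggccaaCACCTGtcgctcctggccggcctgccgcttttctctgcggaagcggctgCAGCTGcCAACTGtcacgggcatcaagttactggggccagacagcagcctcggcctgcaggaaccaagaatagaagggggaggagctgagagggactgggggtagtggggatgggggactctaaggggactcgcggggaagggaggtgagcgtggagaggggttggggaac

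Gadd45g held CACGTG at 142, CATTTG at 104 and CAGCTG at 55 bases before its start. Hes6 held CACCTG at 220, CAGCTG at 171 and CAACTG at 164 bases before the start shown, and a second Hes6 start had CAGCTG at 150. Neurod1 held CATATG at 242, and the windows of Neurog2, Neurog1, Neurod4, Btg2 and Eomes held none. Genes with and without an E-box in this window thus varied together across the germline libraries, as Gadd45g did with Neurog2. Across the inducible libraries Pearson's r of that pair was −0.70. These matches describe letters within 250 bases and not occupied sites.

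Among 18 neurogenin targets and other genes of intermediate progenitors, 0 passed both thresholds in either comparison, and the median log2 fold changes were −0.03 in the germline and −0.06 in the inducible knockouts. Dll1, the Notch ligand switched on by neurogenins, measured 1019, 1366 and 1492 in germline wild-type and 1548, 2015 and 1480 in knockout libraries (log2 fold change 0.38 ± 0.19 SE, limma, adjusted p = 0.779). In the inducible table it measured 2951 and 2988 in wild-type and 2676, 2594 and 2512 in knockout libraries. These groups did not overlap, and the difference was past the P threshold but short of 1.5-fold (log2 fold change −0.20 ± 0.05 SE, limma, adjusted p = 0.74). Sox11 and Sox4, transcription factors of differentiating neurons and the most abundant genes of this list with Elavl4, an RNA-binding protein of neurons, had germline log2 fold changes of 0.14, −0.05 and −0.04. In knockout replicate 2 they measured 59940, 9058 and 5403, above every other germline library, as Eomes and Neurog2 were.

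The 7 genes for E proteins and their Id inhibitors, which bind and block them, held 0 genes past both thresholds in either comparison. Tcf4, Tcf12 and Id4, the most abundant, had germline log2 fold changes of −0.20, 0.11 and −0.25. Id3 was 0.68 ± 0.30 SE in the germline (limma, adjusted p = 0.779) and −0.47 ± 0.14 SE in the inducible comparison (limma, adjusted p = 0.798), and in the second its groups did not overlap and it was past the P threshold alone. Without inducible wild-type replicate 1 the Id3 value was −0.59, past both thresholds, and without wild-type replicate 2 it was −0.34.

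Of 14 Notch pathway and radial glial genes, 10 had a germline log2 fold change above 0 and 4 below, with a median of 0.135, and 1 was past both thresholds and lower. Among all 13938 tested genes 6128 were above 0 and 7810 below. Hes1 (0.735), Hes5 (0.495), Sox9 (0.40) and Sox2 (0.36), factors of the progenitor state, were above 0 without passing the P threshold, and each was highest in knockout replicate 2. Vim (0.11) and Nes (−0.24), the most abundant genes of the list, were instead lowest in that library, at 14754 and 5312. Fabp7, a fatty acid binding protein of radial glia, measured 7955, 4447 and 4339 in wild-type and 3021, 3230 and 2960 in knockout libraries (log2 fold change −0.80 ± 0.24 SE, limma, adjusted p = 0.779). Like Insm1 it was similar in all 3 knockout libraries and below each wild-type one, but without wild-type replicate 1 its log2 fold change was −0.52, short of 1.5-fold. In the inducible comparison Fabp7 measured 5670 and 6377 against 5983, 6882 and 6281, and 0 of the 14 passed both thresholds, with a median of −0.115. There 3 genes were lower and past the P threshold alone, each with a limma adjusted p of 0.825. They were Hes5, a Notch-induced repressor of neurogenins (log2 fold change −0.26 ± 0.08 SE), Sox9 (−0.25 ± 0.11 SE) and Emx2 (−0.355 ± 0.145 SE). Hes5 missed the P threshold without wild-type replicate 1 (−0.19). Sox9 passed it only when knockout replicate 1 was left out, and Emx2 only when wild-type replicate 1 or knockout replicate 1 was.

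For 14 early neuron genes the median log2 fold change was −0.31 in the germline comparison, with 0 past both thresholds. Of the 14, 13 were below 0, beside 7810 of all 13938 tested genes. Their summed level was 49204 to 61151 normalized counts in wild-type libraries and 25911, 103597 and 33102 in knockout replicates 1, 2 and 3, the same order as Eomes and Neurod1. Dcx, a microtubule protein of migrating neurons, measured 12956, 11915 and 12600 in wild-type and 5224, 26719 and 6998 in knockout libraries. In the inducible comparison the median was 0.06, and 0 passed both thresholds. Neurod6, a factor of postmitotic cortical neurons, measured 1075 and 1000 in wild-type and 1774, 1492 and 1272 in knockout libraries, all above both wild-type libraries, a difference past the P threshold alone (log2 fold change 0.53 ± 0.13 SE, limma, adjusted p = 0.716). Without knockout replicate 3 it was 0.65, past both thresholds.

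The other lists describe which cells the libraries held. In the germline comparison the median log2 fold changes were 0.06 for cortical identity, −0.14 for Cajal-Retzius cells, −0.04 for ventral telencephalon, 1.64 for diencephalon, 0.62 for cortical hem and choroid plexus, −0.86 for cranial mesenchyme, −0.17 for endothelium, −0.03 for erythroid cells and −1.45 for microglia. Single libraries carried some of these medians. In knockout replicates 1, 2 and 3 the mesenchyme median was 1.76, −5.44 and 0.84 on the log2 scale relative to the wild-type mean, that of microglia −0.12, −4.21 and −0.07, and that of the diencephalon 3.82, 0.24 and 0.49. Of these lists only that of the hem held genes past both thresholds, with Rspo1, Rspo2, Rspo3 and Wnt8b higher and Ttr lower, and only Rspo2 passed whichever library was left out (log2 fold change 0.72 to 1.29). In the inducible comparison the same medians were −0.18, −0.30, 0.15, 0.05, −0.58, 0.07, 0.14, −0.10 and 0.24, and Rspo1 (lower) and Olig3 (higher) were past both thresholds, though neither was without wild-type replicate 2 (−0.69 and 2.38). Rspo1 also fell short of 1.5-fold without knockout replicate 3 (−0.52), and Olig3 missed the P threshold without knockout replicate 1 (2.58) or 2 (2.24). Irx1, of the diencephalon list, was at 0 in 1 germline library, and the other defining genes of these lists were above 0 in each library. The inducible libraries were uneven as well. Their ventral telencephalon genes summed to 13702 and 7457 normalized counts in wild-type and 8101, 9852 and 16821 in knockout libraries. In inducible knockout replicate 3 the hem median was −1.215 and that of cortical identity −0.51, on the log2 scale relative to the wild-type mean. The part of these cell types in the neurogenic values was not tested.

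Of the other genes, 10728 averaged 100 normalized counts or more in both tables and were compared with the mean log2 level of the 9 genes over the libraries of each table. The 5 most alike by the smaller of the 2 Pearson correlations (6 germline and 5 inducible libraries) were Nudt21 (0.93 and 0.95), Zc3h15 (0.98 and 0.92), Ptma (0.92 and 0.99), Dyrk2 (0.98 and 0.90) and Ly6e (0.90 and 0.96). Their own range was narrow, with Nudt21 between 1365 and 1692 normalized counts in the germline libraries. With so few libraries these values are a description.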

How the data were processed

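The authors sequenced poly(A) RNA (TruSeq, HiSeq2000), aligned reads to mm9 with TopHat (1.2.0 per the submitters' processing notes), counted each read once per RefSeq gene and normalized counts by TMM (trimmed mean of M-values, edgeR). They deposited this signal, normalized counts, as 1 table per comparison, with library totals of 13048716 to 15551274 (germline) and 24118520 to 24497307 (inducible). They are neither whole nor per length, so no count model was fitted, and raw depth is unknown. This scaling assumes that most genes do not change.

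Groups came from the labels. Each table was analysed alone as log2(normalized count + 1), for genes with a mean of at least 10, by limma 3.58.1 in R 4.3.3 (lmFit, eBayes with trend, two-sided, Benjamini-Hochberg over all genes tested). The code was tested on simulated data with independent noise in each library and no outlying library. That test therefore does not show how well changes are found in these data. Fold changes understate low genes. Kif20a was also tested by exact permutation. The members and gene lists were chosen with earlier results of these data known, so lists are described by counts and medians. A gene of the cortical identity list is not reported here and was left out of it. Named genes were the 9 members, Kif20a, and per list the genes past both thresholds and at most 3 of the most abundant, Dll1, Id3, Hes1, Hes5, Sox2, Sox9, Emx2, Neurod6 and Dcx being named after their values were seen, as were the composition markers of the germline libraries. Positions and exon lengths are from GENCODE M1 on NCBIM37, promoters from RefSeq (GRCm38.p6) placed on mm9 by exact match. Per-sample columns left unused numbered 0.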

Additional observations from a re-analysis of the deposited data

How the results depend on the processing

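With 2 or 3 libraries a group, small changes could not be detected, and values of low genes such as Neurod4 are least precise. The count of genes past both thresholds was 0 in each comparison under other pseudocounts, no filter, quantile or median-of-ratios scaling, eBayes without a trend and a replicate block. It was 1 in the germline comparison with array weights (Eomes, −0.96) and 1 with the Y-linked covariate (Insm1, −0.64). Over all genes, 3.47% were lower and 4.02% higher with array weights, and 0.481% and 0.789% with the covariate. Germline fits without 1 library put 0.301% to 4.58% of all genes lower and 0.825% to 4.43% higher at the same thresholds. Leaving out 1 library in turn gave counts of 0 to 2 (germline) and 0 to 1 (inducible), medians of −0.33 to 0.005 and −0.13 to 0.019, and Kif20a log2 fold changes of −2.66 to −2.44 and −0.74 to −0.67, with adjusted p of 0.00113 to 0.185 and 0.0153 to 0.193. Adjusted p stayed above 0.05 for the 9 genes throughout.

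Signs turned when single libraries were left out. The germline ranges were −1.004 to 0.062 for Eomes, −0.66 to 0.075 for Neurod1, −0.022 to 0.35 for Neurog1, −0.33 to 0.71 for Neurog2 and −0.16 to 0.50 for Gadd45g. The inducible ranges were −0.17 to 0.002 for Eomes, −0.039 to 0.12 for Insm1, −0.62 to 0.44 for Neurod4, −0.32 to 0.18 for Neurog1 and −0.29 to 0.057 for Neurog2. Germline Insm1 (−0.62 to −0.45) and Hes6 (−0.39 to −0.25) kept their sign. Germline Neurog2 became −0.056 with array weights and −0.11 with the Y-linked covariate. Inducible Btg2 became 0.012 and Insm1 −0.037 with array weights. The cause was not tested.

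The study collected wild-type and mutant cortices from littermates, and the labels do not say which libraries shared a litter. Same-numbered libraries did not all deviate together (correlations −0.12, 0.31 and 0.25 among germline, −0.35 and −0.05 among inducible libraries), so the numbers were not taken as a pairing. With so few libraries these correlations cannot show whether litters were shared, and the main fit ignores any shared litter. With the replicate block the inducible median became −0.002, Neurog2 0.023, Neurod4 0.012, Insm1 −0.039 and Kif20a −0.67 (limma adjusted p = 0.3). Kif20a also missed an adjusted p of 0.05 in the inducible comparison without a trend (−0.70, adjusted p = 0.147). Relative to the cortical identity genes, added after the data were seen, Kif20a was −2.54 (adjusted p = 0.0521) and −0.53 (adjusted p = 0.952), and the inducible median was 0.094, with Eomes 0.089, Neurog1 0.094, Neurog2 0.047, Neurod4 0.075, Btg2 0.126 and Hes6 0.042. That scaling moved the inducible median of all genes to 0.16, so the 6 signs that turned did so under a shift of all genes.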
